A study of Homo sapiens with 15 samples.

Results

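Complement and acute-phase secreted proteins are represented here by 9 genes, A2M, HP, C3, CFB, C1R, C1S, CFI, SERPINA1 and SERPING1, found by name among the 15790 genes of the deposited table. All 9 were present. They were picked by name with earlier results of these data in view: A2M and HP had been singled out between the epithelial monocultures, and SERPINA1 between epithelium and fibroblasts. Those values, and the difference of differences for A2M and HP that contains them, are described without a test. Gene expression was measured by RNA sequencing in 15 libraries, 3 in each of 5 groups. RPTEC/TERT1 cells, an immortalized line of human renal proximal tubule epithelium, were grown either on LN/FN-silk membranes (called silk below) or on membranes labelled LN/PC. Both membranes carried monocultures and co-cultures with fHDF/TERT166, immortalized dermal fibroblasts from human foreskin, which also formed the fifth group without epithelium. Seeding density was 140000 per cm2 for epithelial cells and 14000 per cm2 for fibroblasts, with collection on day 14. The 4 epithelial groups shared a medium with hydrocortisone at 36 ng/ml, epidermal growth factor at 10 ng/ml and 0.5% serum. For the fibroblast monocultures these additions are not given here, and their labels name no membrane. Hydrocortisone is a glucocorticoid, a class of hormone known to raise many acute-phase genes. Silk membranes were scraped off whereas LN/PC membranes were cut out, so the membrane cannot be told apart from the harvest in any comparison of silk with LN/PC. Each sample pooled 3 to 8 membranes of 1 epithelial line, and no label says that the replicates were separate cultures. The p-values therefore measure the spread between these libraries, which may be partly technical.

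Complement is a set of blood and tissue proteins that cut one another in sequence. In the classical pathway the proteases C1r and C1s start the cascade that leads to cleavage of C3. In the alternative pathway factor B supplies the protease that cleaves C3. Factor I and C1 inhibitor (SERPING1) hold the cascade in check. Acute-phase proteins are secreted proteins whose output, mostly from the liver, changes in inflammation. They include the protease inhibitor alpha-1-antitrypsin (SERPINA1) and the hemoglobin carrier haptoglobin (HP). Alpha-2-macroglobulin (A2M), a broad protease trap, is a major acute-phase protein in the rat. Kidney tubule cells and fibroblasts are both known to make several complement proteins locally.

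Levels are normalized counts, recovered from the deposited log2 values. They are not scaled to gene length, so they are compared between groups and not between genes. Library totals ran from 9.08 to 12.7 in units of 1e6, and 1 read was worth about 0.755 to 1.34 normalized counts. Differences are on the log2(value + 1) scale with their standard error (SE), and a gene was called at a limma adjusted p under 0.05 over all genes tested. All 9 genes passed the filter on low values, at least 10 in at least 3 libraries of a fit. A2M and HP passed it among epithelial libraries only through LN/PC, and CFI, SERPINA1 and HP passed it against fibroblasts only through epithelium. Such genes had to differ in that direction, so these differences are described without a test and left out of the counts. The cell types were checked against their markers: 6 of 11 renal epithelial markers were at 0 in all 3 fibroblast libraries, and 4 of 12 fibroblast markers were at 0 in all libraries of each epithelial monoculture group. Against that, the renal marker CUBN was higher in fibroblasts (151 ± 40.7, against 61.9 ± 42.1 in silk and 41.0 ± 21.7 in LN/PC monocultures), and the fibroblast marker VIM stood at 24421 to 39290 in epithelial monocultures. The fibroblast share of the RNA, estimated over 112 marker genes, was 13.9%, 9.81% and 15.2% in LN/PC co-cultures 1 to 3 and 0.0239%, 0% and 0.113% in the 3 silk co-cultures. In these bulk samples fewer cells of a type and less RNA per cell cannot be told apart. Of the markers fixed for other cell types, 1 of 8 hepatocyte, 1 of 10 leukocyte and 1 of 7 endothelial markers were in the table. The hepatocyte marker was the albumin gene ALB, at 1822 in LN/PC co-culture 1 and at 0 to 28.7 in the other 14 libraries. The endothelial marker PECAM1 averaged 4.08 ± 4.90 in silk and 52.5 ± 41.5 in LN/PC monocultures. It too passed the filter only through LN/PC, so this difference is described without a test. The leukocyte marker CD68 averaged 152 ± 58.3 in silk and 216 ± 56.0 in LN/PC monocultures, 809 ± 67.3 and 448 ± 84.1 in the co-cultures and 546 ± 30.4 in fibroblasts. CD68 was called higher in co-culture on both membranes and higher on silk than on LN/PC in co-cultures (log2 0.87 ± 0.27, adjusted p = 0.0217). The part of these markers in the results was not tested.

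**Figure D1:**
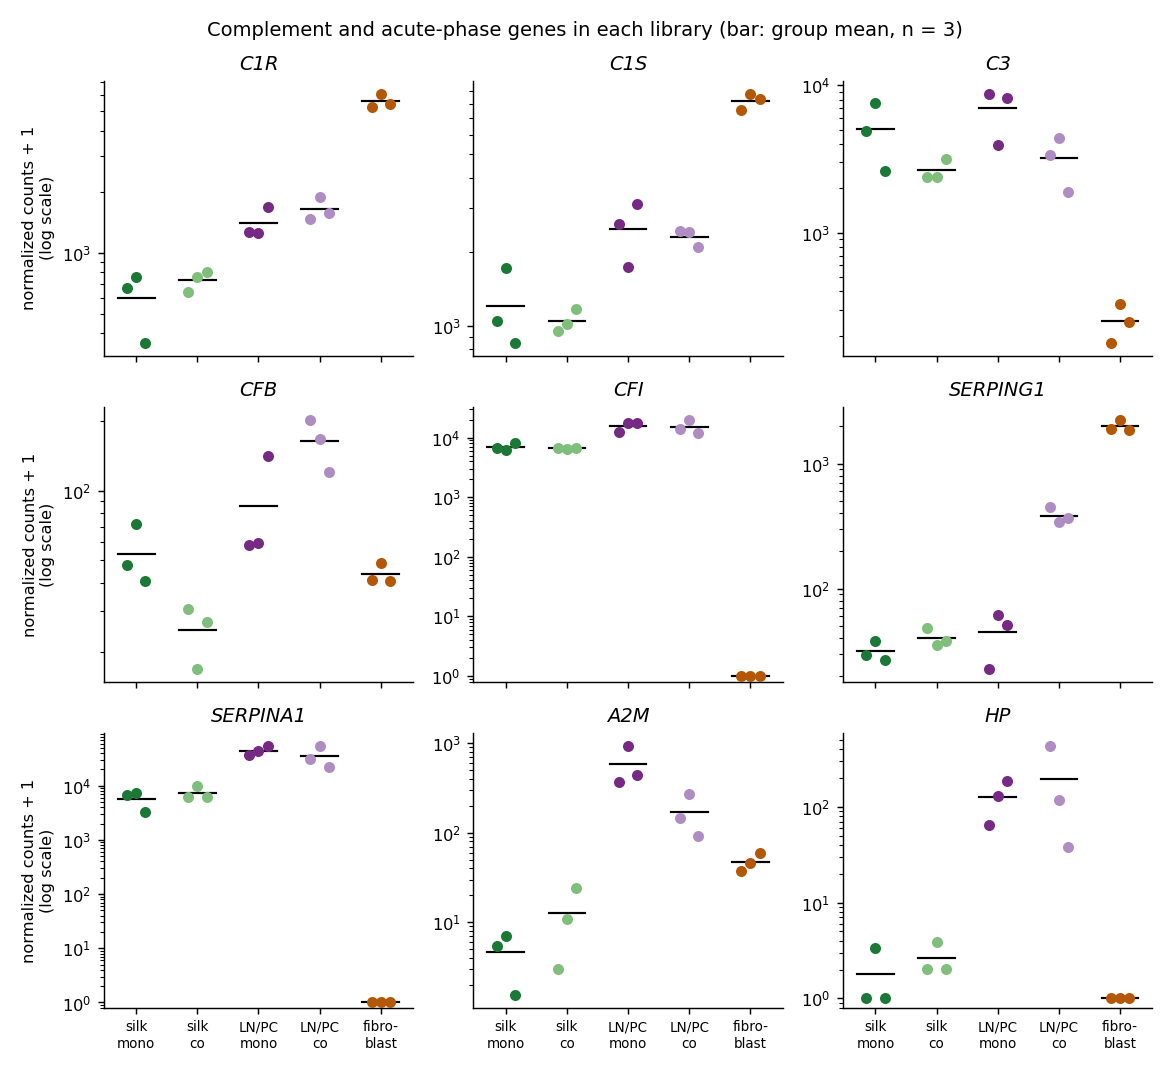
Normalized counts plus 1 (vertical axis, log scale) of each gene in every library, with points for the 3 libraries and a bar for the mean of each of the 5 groups. SERPINA1 and CFI sit at 0 in the 3 fibroblast libraries, C1R, C1S and SERPING1 are highest there, and A2M and HP stand well above the silk libraries in both LN/PC groups.

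The genes split between the 2 cell lines, where any difference in medium or membrane cannot be told apart from the line. C1R, C1S and SERPING1 were higher in fibroblasts, C3 was higher in epithelium, and CFI, SERPINA1 and HP were at 0 in every fibroblast library. Fibroblasts were compared with the mean of the 2 epithelial monoculture groups. Of the 6 genes tested there, 3 were called higher and 1 lower in fibroblasts, beside 58.3% of all genes called, 28% higher and 30.3% lower. SERPING1 averaged 2004 ± 217 in fibroblasts (SD, n = 3), against 30.4 ± 5.92 in silk and 44.1 ± 20.1 in LN/PC monocultures, a log2 difference of 5.798 ± 0.29 (adjusted p = 1.04e-08). C1R was higher in fibroblasts by 2.66 ± 0.21 (adjusted p = 6.74e-07) and C1S by 2.31 ± 0.23 (adjusted p = 4.24e-06). C3 was lower (log2 -4.50 ± 0.34, adjusted p = 4.34e-07), at 250.02 ± 74.4 in fibroblasts. CFI was at 0 in all 3 fibroblast libraries. With a floor of 3 reads per library it was at least 2361-fold lower there than in silk monocultures and at least 5308-fold lower than in LN/PC monocultures. SERPINA1 was at least 1909.8-fold and 14790-fold lower by the same floor. HP was also at 0 in all fibroblast libraries, at least 41.5-fold below LN/PC monocultures, and no fold is given against silk, where it was itself under the floor. CFB, at 42.5 ± 4.70 in fibroblasts, was not called (log2 -0.56 ± 0.32, adjusted p = 0.161). The A2M level in fibroblasts, 46.4 ± 10.9, lay above all silk and below all LN/PC monoculture libraries.

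Between the membranes, most of these genes were lower on silk, with and without fibroblasts. In monocultures 4 of 7 tested genes, C1R, C1S, CFI and SERPINA1, were lower and 0 were higher, beside 11.7% of all genes called (5.88% higher, 5.79% lower). In co-cultures 6 of the same 7, those 4 with CFB and SERPING1, were lower and 0 higher, beside 36.1% of all genes called (18.5% higher, 17.6% lower). The exception was C3. Over these 7 genes the median log2 difference was -1.07 in monocultures and -1.17 in co-cultures, against 0.03 over all genes tested in each. These 10 calls held when each library of the compared groups was left out in turn. In the co-cultures the fibroblast RNA share differed between the membranes too, and its part in these calls was not tested. The share of normalized counts from mitochondrial genes also moved with the membrane, at 4.23% to 6.58% in silk and 1.502% to 3.80% in LN/PC monocultures, and 5.63% to 6.54% and 2.03% to 3.04% in the co-cultures. Its part in the membrane differences was not tested either.

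**Figure D2:**
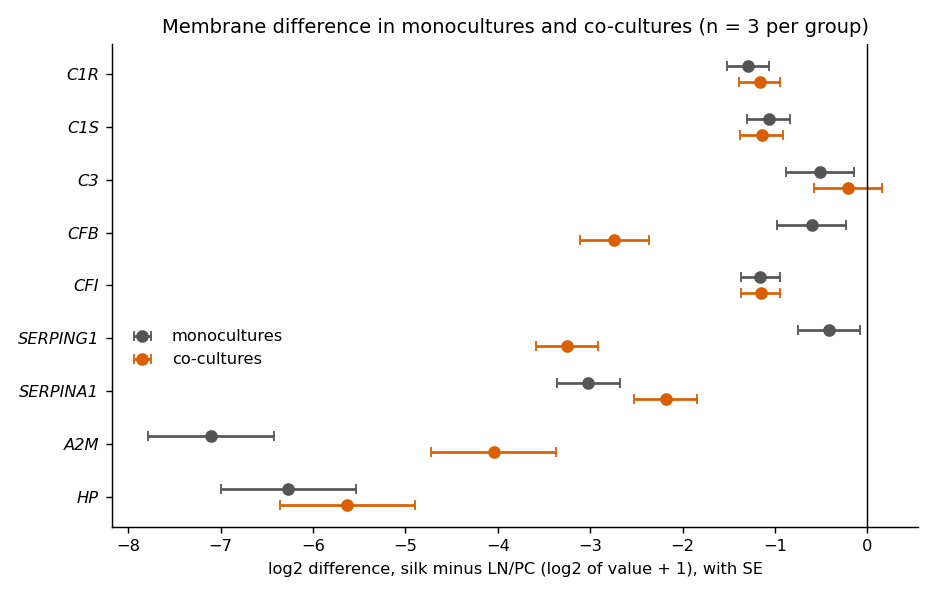
Log2 difference between silk and LN/PC (horizontal axis, log2 of value plus 1) for each gene in monocultures (grey) and co-cultures (orange), with SE bars and 3 libraries per group. All points lie below 0, those of C3 are nearest to it in the co-cultures, and CFB and SERPING1 are near -0.60 and -0.42 in monocultures but -2.74 and -3.25 in co-cultures.

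The initiating proteases C1R and C1S moved as a pair with the membrane. C1R stood at 667, 759 and 357 in silk monocultures and at 1264, 1252 and 1672 in LN/PC monocultures. All silk libraries lay below all LN/PC libraries (log2 -1.29 ± 0.23, adjusted p = 0.00231). In co-cultures it stood at 636, 753 and 801 on silk and at 1473, 1884 and 1572 on LN/PC, again without overlap (log2 -1.17 ± 0.23, adjusted p = 0.00101). C1S stood at 1040.2, 1710.4 and 848 in silk monocultures and at 2586, 1732 and 3115 in LN/PC monocultures. The highest silk library came close to LN/PC monoculture 2, and the difference was called (log2 -1.07 ± 0.23, adjusted p = 0.00901). In co-cultures C1S stood at 945, 1014 and 1172 on silk and at 2428, 2395 and 2079.9 on LN/PC, with a similar difference (log2 -1.14 ± 0.23, adjusted p = 0.00149). Both genes followed the order fibroblasts, then the 2 LN/PC groups, then the 2 silk groups. Within a membrane the monoculture and co-culture libraries overlapped, and neither gene was called for co-culture on silk (adjusted p = 0.463 and 0.829) or on LN/PC (adjusted p = 0.536 and 0.887).

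C3, the central component, was not called between the membranes in either kind of culture. It stood at 4860.4, 7620.2 and 2625 in silk monocultures and at 8787, 3919 and 8215 in LN/PC monocultures. LN/PC monoculture 2 was the low library of its group and lay inside the silk range (log2 -0.51 ± 0.37, adjusted p = 0.373). In co-cultures it stood at 2398, 2391 and 3137 on silk and at 3353, 4415 and 1885 on LN/PC, with overlap (log2 -0.21 ± 0.37, adjusted p = 0.680). Means were lower in co-culture on both membranes, 2642 ± 429 against 5035 ± 2502 on silk and 3218 ± 1270.2 against 6973 ± 2661 on LN/PC. Neither was called (adjusted p = 0.271 and 0.0580). On LN/PC the C3 difference was called, at adjusted p = 0.00793, when LN/PC monoculture 2 was left out, and at adjusted p = 0.0369 without LN/PC co-culture 2.

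CFB, the factor B protease of the alternative pathway, differed in its co-culture response between the membranes. On silk it stood at 46.7, 70.7 and 39.5 in monocultures and at 29.8, 15.9 and 25.9 in co-cultures, so every co-culture library lay below every monoculture library. On LN/PC it stood at 57.2, 58.2 and 140.04 in monocultures and at 203, 168 and 119.97 in co-cultures, where the groups overlapped. Neither response was called alone (log2 -1.10 ± 0.38, adjusted p = 0.123 on silk, and 1.03 ± 0.38, adjusted p = 0.0860 on LN/PC). The difference between the 2 responses was called (log2 -2.14 ± 0.53, adjusted p = 0.0196), beside 7.73% of all genes (3.15% higher, 4.59% lower). The membrane difference was not called in monocultures (log2 -0.60 ± 0.38, adjusted p = 0.305) and was in co-cultures, where the silk and LN/PC libraries did not overlap (log2 -2.74 ± 0.38, adjusted p = 4.75e-05). The call of the difference between responses ended when silk monoculture 2 (adjusted p = 0.0601), silk co-culture 2 (0.0614), LN/PC monoculture 1 (0.0571) or LN/PC co-culture 1 (0.0688) was left out. These are low levels, with about 73 reads over the 3 silk co-cultures and 431 over the 3 LN/PC co-cultures.

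CFI, the protease that inactivates C3b and C4b, had the same membrane difference in both kinds of culture. It stood at 6775, 6312 and 8237 in silk monocultures and at 12657.5, 17829.5 and 17447 in LN/PC monocultures (log2 -1.16 ± 0.21, adjusted p = 0.00287). In co-cultures it stood at 6778, 6493 and 6819 on silk and at 14083, 19885 and 11784 on LN/PC (log2 -1.15 ± 0.21, adjusted p = 0.000629). Silk and LN/PC libraries did not overlap in either case. The difference between the 2 membrane differences was 0.01 ± 0.30 (adjusted p = 0.991). Adding fibroblasts left no called change on silk (log2 -0.08 ± 0.21, adjusted p = 0.905) or on LN/PC (log2 -0.08 ± 0.21, adjusted p = 0.839).

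SERPING1, which encodes the inhibitor of C1r and C1s, was the one gene called for co-culture on LN/PC. It stood at 21.6, 60.3 and 50.4 in LN/PC monocultures and at 447, 339.9 and 363 in LN/PC co-cultures. All co-culture libraries were higher (log2 3.20 ± 0.34, adjusted p = 3.57e-06), beside 12.5% of all genes called (7.8% higher, 4.72% lower). On silk it stood at 28.3, 37.1 and 25.9 in monocultures and at 47.2, 34.4 and 36.9 in co-cultures, with overlap (log2 0.37 ± 0.34, adjusted p = 0.649). The co-culture responses differed between membranes (log2 -2.83 ± 0.48, adjusted p = 0.00106). The membrane difference was called in co-cultures (log2 -3.25 ± 0.34, adjusted p = 3.05e-06) and not in monocultures (log2 -0.42 ± 0.34, adjusted p = 0.442). The mean of the LN/PC co-cultures, 383 ± 56.2, stood beside a fibroblast level of 2004 and a mixture level of 298. The fibroblast collagen gene COL1A1 averaged 35573 ± 7231 in LN/PC co-cultures against 119.9 ± 87.0 in silk co-cultures. The part of fibroblast RNA in the SERPING1 result was not tested.

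SERPINA1, which encodes the main inhibitor of neutrophil elastase, was high in epithelium and higher on LN/PC. It stood at 6645, 7374 and 3227 in silk monocultures and at 36492, 43105 and 53959.9 in LN/PC monocultures. The lowest LN/PC library was far above the highest silk library (log2 -3.02 ± 0.34, adjusted p = 5.61e-05). In co-cultures it stood at 6174, 10086 and 6129 on silk and at 30909, 53161 and 21778 on LN/PC, also without overlap (log2 -2.18 ± 0.34, adjusted p = 0.000164). The mean was 7.74-fold lower on silk in monocultures and 4.73-fold lower in co-cultures. These 2 differences were not shown to differ (log2 0.84 ± 0.48, adjusted p = 0.333). Adding fibroblasts gave no call on silk (adjusted p = 0.595) or LN/PC (adjusted p = 0.472).

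A2M, the protease trap, was close to absent on silk. It stood at 4.49, 6.004 and 0.533 in silk monocultures, about 12 reads in all, and at 369, 935 and 443 in LN/PC monocultures. This is the contrast for which the gene was noticed, so it is given as a description (log2 -7.11 ± 0.68). In co-cultures it stood at 2.02, 9.97 and 23.0 on silk and at 144, 270.3 and 90.4 on LN/PC, without overlap (log2 -4.05 ± 0.68). On LN/PC every co-culture library lay below every monoculture library, 168 ± 92.4 against 582 ± 307, yet the difference was not called (log2 -1.81 ± 0.68, adjusted p = 0.0963). That comparison shares the LN/PC monocultures with the one in which A2M was noticed. With the 6 LN/PC libraries alone in the fit it was called (adjusted p = 0.0126). On silk the co-culture difference was not called (log2 1.25 ± 0.68, adjusted p = 0.376).

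HP, the haptoglobin gene, was detected on LN/PC and was at or near 0 elsewhere. Its reads may be shared with the near-identical HPR, which has no row in the deposited table and could not be analysed, so its values are uncertain. It stood at 0, 2.35 and 0 in silk monocultures, about 2 reads in all, and at 63.5, 127 and 184 in LN/PC monocultures. By pooled reads this is a 194-fold difference (95% exact interval 53.5 to 1611, Clopper-Pearson, counting error only), described without a test. In co-cultures it stood at 1.01, 2.89 and 1.03 on silk, about 5 reads in all, and at 431, 116 and 36.9 on LN/PC. All LN/PC libraries were higher (log2 -5.63 ± 0.73). LN/PC co-culture 1, with the highest HP, is the library with ALB at 1822, and without that library the difference was -4.73. Between LN/PC co-cultures and monocultures HP was not called (log2 0.11 ± 0.73, adjusted p = 0.943), and without LN/PC co-culture 1 its direction turned (log2 -0.79, adjusted p = 0.595).

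For co-culture with fibroblasts, the calls among these genes stood near the shares over all genes. On silk 0 of 9 were called, beside 3.78% of all genes (2.91% higher, 0.866% lower), and 2 of 9 (C3 and CFB) had an unadjusted limma p under 0.05. On silk A2M held only about 12 reads in monocultures and 34 in co-cultures, and HP 2 and 5. On LN/PC 1 of 9 was called, SERPING1, beside 12.5% of all genes (7.8% higher, 4.72% lower). Each LN/PC co-culture library was also set beside a computed mixture, the LN/PC monoculture mean and the fibroblast mean weighted by that library's fibroblast RNA share. This is a description with no test. The share is a median, and single fibroblast markers differed widely. PDGFRB averaged 506 ± 129 in LN/PC co-cultures against 8069 ± 510 in fibroblasts, and FAP 730 ± 334 against 1600 ± 91.0. The mixture levels do not carry that spread, and whether SERPING1 lay beyond it was not tested. CFB exceeded its mixture level in all 3 libraries, at 153% to 256% of it, and SERPING1 did too, at 106% to 144%. A2M reached 18.0% to 51.0% of its mixture level, C3 31.7% to 69.9% and C1S 62.0% to 78.7%, below it in every library. C1R averaged 84.7% of the mixture, SERPINA1 91.1% and CFI 109.7%, with libraries on both sides. HP ran from 34.8% to 400.3%. LN/PC co-culture 2, which had the smallest fibroblast share, was the highest of the 3 relative to its mixture for A2M, C3, C1R, C1S, CFI, SERPINA1 and SERPING1.

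**Figure D3:**
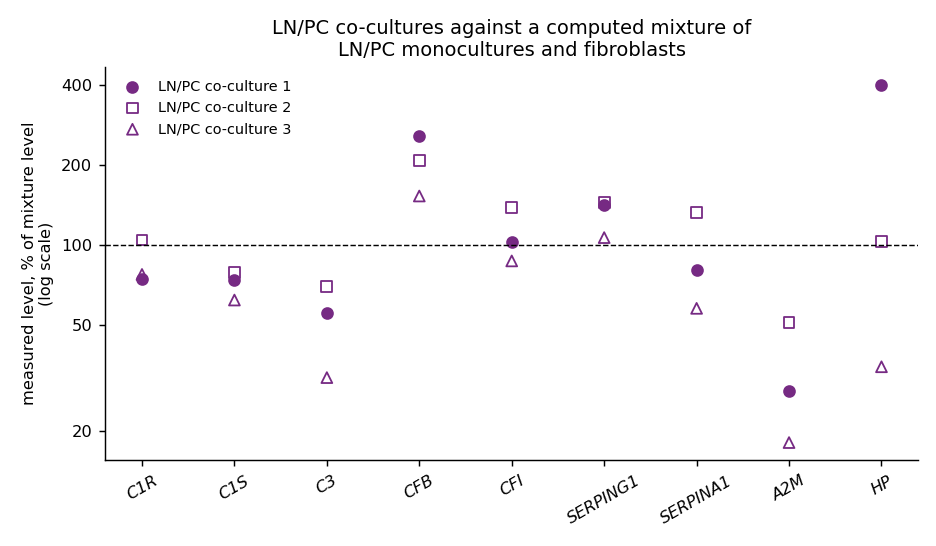
Measured level of each gene in LN/PC co-cultures 1 to 3 as a percent of the level in a computed mixture of LN/PC monocultures and fibroblasts (vertical axis, log scale; dashed line at 100%). All 3 points lie above the line for CFB (153% to 256%) and SERPING1, and below it for A2M (18.0% to 51.0%), C3 and C1S.

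Other genes of the same pathways were read from lists. Of 49 further complement genes 15 were in the table, and 0 of the 6 terminal components C6 to C9 were among them. In monocultures 7 of the 15 were lower and 1 higher on silk (median log2 -0.63), and in co-cultures 8 were lower and 1 higher (median -0.75). C4A and C4B count separately in both. CLU, among the 7 (adjusted p = 0.0475), lost its call in 8 of 15 alternatives, with adjusted p up to 0.179 without silk monoculture 3. MASP1, among the 8, passed the filter only through the LN/PC co-cultures, which fixed its direction. Over all genes 5.79% were lower in monocultures and 17.6% in co-cultures, and 5.88% and 18.5% higher. C4A and C4B, near-identical copies whose reads may be shared, were lower on silk in monocultures (log2 -2.65 ± 0.27 and -2.75 ± 0.30) and in co-cultures (log2 -1.96 and -1.84). COLEC12, a scavenger receptor collectin, was lower in both (log2 -2.19 ± 0.26 and -1.80 ± 0.26). CD55, a membrane regulator that speeds the decay of convertases, was lower on silk in monocultures (log2 -0.79 ± 0.23, adjusted p = 0.0371) and higher in co-cultures (log2 0.78 ± 0.23, adjusted p = 0.0156). Leaving out single libraries ended both CD55 calls, with adjusted p up to 0.181 in monocultures without LN/PC monoculture 3.

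Of 40 further acute-phase and protease inhibitor genes 18 were in the table and 17 were tested. On silk 4 were lower and 2 higher in monocultures, and 8 lower and 2 higher in co-cultures, beside the same shares of all genes. SERPINF1, among the 8, passed the filter only through the LN/PC co-cultures, which fixed its direction. SERPINA3 (alpha-1-antichymotrypsin) averaged 222 ± 119 on silk and 3279.8 ± 1398 on LN/PC in monocultures (log2 -3.97 ± 0.41, adjusted p = 2.62e-05), and was lower in co-cultures as well (log2 -2.99 ± 0.41, adjusted p = 4.29e-05). CP (ceruloplasmin, the copper carrier) was lower by about the same amount in both (log2 -1.17 ± 0.19 and -1.13 ± 0.19). The kallikrein inhibitor gene SERPINA4 (log2 -3.59 ± 0.60 and -2.15 ± 0.60) and the protein C inhibitor gene SERPINA5 (log2 -1.61 ± 0.22 and -1.43) were lower on silk too. SERPINA4 in co-cultures lost its call without silk co-culture 3 (adjusted p = 0.0614) or LN/PC co-culture 2 (adjusted p = 0.0618). CD109, a membrane protein of the alpha-2-macroglobulin family, was higher on silk in monocultures (log2 1.37 ± 0.27, adjusted p = 0.00524) and lower in co-cultures (log2 -1.79 ± 0.27). It averaged 6149 ± 363 in fibroblasts, against 206 ± 26.1 in silk and 84.5 ± 40.5 in LN/PC monocultures. In co-cultures it averaged 224 ± 28.1 on silk and 787 ± 189 on LN/PC. The part of fibroblast RNA in its change of sign was not tested. The classical inflammatory markers SAA1, SAA2 and LCN2, also named after their values were seen, were low in all groups. The highest value of the 3 genes in any library was 87.4, for SAA1 in LN/PC monoculture 3, and none was called between membranes.

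Of 27 listed inducer, receptor and transcription regulator genes, 13 were lower on silk in monocultures and 1 higher (all genes 5.79% and 5.88%). Their median was -0.68, against 0.03 over all genes. The lists also hold LRP1 and SOCS3, so they are not only activators of the acute-phase response. STAT3, a transcription factor downstream of interleukin-6, averaged 3534 ± 358 on silk and 10237 ± 3836 on LN/PC in monocultures (log2 -1.46 ± 0.27, adjusted p = 0.00319). LN/PC monoculture 2 was the lowest of its group, at 5881, still above every silk monoculture library. In co-cultures 12 of the 27 were lower and 5 higher on silk (all genes 17.6% and 18.5%). LIF (log2 1.66 ± 0.24) and IL6R (log2 1.12 ± 0.20) were among the higher. STAT3 was lower on silk there too (log2 -0.90 ± 0.27, adjusted p = 0.0161). The STAT3 call in co-cultures ended without silk co-culture 1 (adjusted p = 0.0616), LN/PC co-culture 1 (0.0538) or LN/PC co-culture 2 (0.0807). The receptor genes IL1R1 (log2 -1.08 ± 0.20), IFNGR1 (-1.08 ± 0.21) and IL6ST (-1.01 ± 0.30), for interleukin-1, interferon gamma and the interleukin-6 family, were lower in monocultures. The call for IL6ST ended without silk monoculture 1 (adjusted p = 0.134), silk monoculture 2 (0.112), LN/PC monoculture 1 (0.121) or LN/PC monoculture 3 (0.187). RELB, an NF-kB subunit gene, was also lower in monocultures (log2 -1.61 ± 0.39, adjusted p = 0.0157). Its call ended without silk monoculture 3 (adjusted p = 0.0570), LN/PC monoculture 1 (0.0555) or LN/PC monoculture 3 (0.0845). For NFKB1, LN/PC monoculture 2 stood at 457.8, inside the silk monoculture range of 331.4 to 458.7. IL6 itself was at 20.7 to 72.6 in the epithelial monocultures and was not called between membranes (adjusted p = 0.919), a gene named here after its values were seen.

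**Figure D4:**
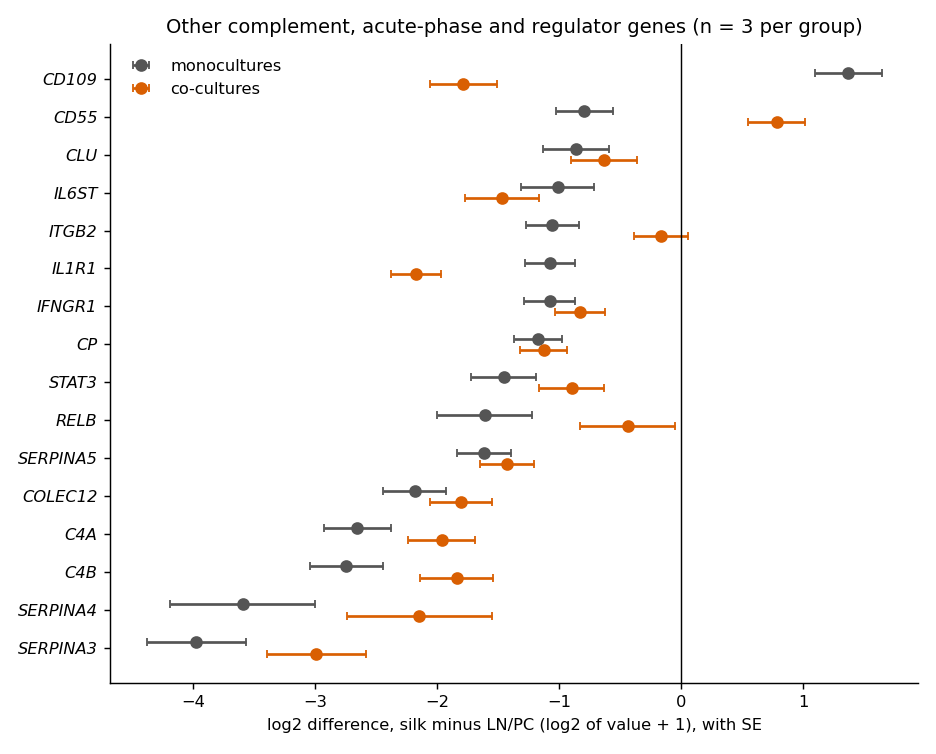
Log2 difference between silk and LN/PC (horizontal axis, log2 of value plus 1, SE bars) in monocultures (grey) and co-cultures (orange) for 16 of the further complement, acute-phase, inhibitor and regulator genes named by rule in monocultures. SERPINA3 is lowest at -3.97 in monocultures, SERPINA4, C4B and C4A follow, and CD109 and CD55 change sign between the 2 kinds of culture.

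Promoter sequence was at hand for 4 of the 9 genes, CFB, C1R, CFI and SERPINA1, in RefSeq windows of GRCh38.p14. The 250 bases before the annotated start were searched on both strands for 6 motifs: NF-kB, C/EBP (TTNNGNAA), STAT (TTCNNNGAA), ISRE, HNF1 and HNF4, those without letters by the name of their consensus. Shown are CFB, whose co-culture response differed between membranes, the C1R start that holds a STAT match, and CFI, which had the same membrane difference in both kinds of culture. Capitals mark motif matches.
CFB, chr6:31945845-31946094, plus strand: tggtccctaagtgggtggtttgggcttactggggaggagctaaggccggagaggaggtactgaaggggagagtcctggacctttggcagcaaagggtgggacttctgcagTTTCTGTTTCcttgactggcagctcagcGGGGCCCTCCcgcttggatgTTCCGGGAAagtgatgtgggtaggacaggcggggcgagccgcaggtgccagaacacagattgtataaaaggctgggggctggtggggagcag
C1R, chr12:7091894-7092143, minus strand: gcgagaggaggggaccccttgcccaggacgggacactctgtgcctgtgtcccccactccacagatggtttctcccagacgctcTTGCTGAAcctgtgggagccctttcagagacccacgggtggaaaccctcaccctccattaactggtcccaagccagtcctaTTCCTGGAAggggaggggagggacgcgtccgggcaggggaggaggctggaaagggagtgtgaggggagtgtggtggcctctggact
CFI, chr4:109802000-109802249, minus strand: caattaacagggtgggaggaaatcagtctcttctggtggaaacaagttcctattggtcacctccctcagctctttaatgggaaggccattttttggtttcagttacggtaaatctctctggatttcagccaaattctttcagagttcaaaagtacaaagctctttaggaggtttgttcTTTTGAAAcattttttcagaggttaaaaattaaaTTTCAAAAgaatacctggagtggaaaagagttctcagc
CFB held an ISRE match 140 to 131 bases before its start, an NF-kB match at 112 to 103 and a STAT match at 92 to 84. Among all 35116 windows 3.02% held an ISRE match, 9.96% an NF-kB match and 6.57% a STAT match. The C1R window held a STAT match at 86 to 78 and a C/EBP match at 167 to 160, and its other annotated start had 2 C/EBP matches and no STAT match. CFI held 2 C/EBP matches, at 72 to 65 and 38 to 31, a motif found in 33.2% of windows. Of the 2 SERPINA1 starts, 1 held a C/EBP match and the other held none of the 6 motifs. No HNF1 or HNF4 match was found in the 4 genes' windows. A match is a run of letters and no evidence of binding.

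Over the 12 epithelial libraries several of the genes varied together, mostly along the membrane. The pairs A2M and SERPINA1 (Pearson r = 0.957 on the log2 scale), HP and SERPINA1 (0.9498) and C1R and SERPINA1 (0.938) were highest. Once each group's mean was taken off, those values were 0.601, 0.525 and 0.777, and the highest pair was C3 and C1S (0.873, against 0.553 before). C1R and C1S, had 0.903 and 0.747. These are descriptions over 12 libraries that share groups and normalization. The genes most alike in pattern were CP and CTSO for CFI (r = 0.992 and 0.982), GLUL and IFITM1 for SERPINA1 (0.986 and 0.978), RELN and RUNX1 for A2M (0.977 and 0.965) and LRRC17 and TBX3 for SERPING1 (0.982 and 0.975). For C1R they were HDAC5 and COPE (0.974 and 0.960), for C1S WDR18 and TNFRSF1A (0.974 and 0.959), for CFB LINC00467 and METTL25 (0.959 and 0.946), for HP SHISA5 and USF2 (0.964 and 0.953) and for C3 FAM222B and UPF1 (0.948 and 0.916).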

How the data were processed

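RNA was sequenced from 15 libraries. Per the submitters' processing notes Salmon 1.10.3 and DESeq2 were used, with a genome build not given in the sources used here. Although named normalized counts, the deposited values are log2 values whose lowest, 5.54, is the same throughout, as a variance-stabilizing transform gives. The deposited log2 values were returned to normalized counts by inverting that transform with 1 constant. As a check, each library's median ratio to the geometric mean over 13121 genes was then 1.01. Rows with a repeated or blank symbol, 121 in all, matched none of the 9 genes. Reads per library, from the size of 1 read, were about 8.74 to 14.7 in units of 1e6. Precision is limited by 3 libraries per group, and the counting interval covers counting error only.

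Differences were fitted with limma 3.58.1 (R 4.3.3, limma-trend) on log2(value + 1), for genes of at least 10 in at least 3 libraries, with Benjamini-Hochberg adjustment over all genes tested and a threshold of 0.05. The 12 epithelial libraries shared a fit, and fibroblasts were compared in a fit of 9 libraries. The fits were tested on simulated data. Comparisons that share a group are not independent of each other. The members and lists were chosen with earlier results of these data known. Named by rule were all 9 members, up to 3 called genes per direction, list and comparison with the largest log2 change and a mean of at least 100, and the 2 genes most alike each member. ALB, CD68, COL1A1, CUBN, PECAM1, VIM, IL6, SAA1, SAA2 and LCN2 were named outside that rule. Some genes that the rule names are not reported here, but they count in the lists. The alternatives were other pseudocounts, filters and scalings, the deposited log2 values, a replicate block, the compared groups alone and leaving out each library.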

Additional observations from a re-analysis of the deposited data

Results flagged for a closer look

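The effect of co-culture on silk minus that on LN/PC (log2) was tested with limma's interaction test. Over all genes 7.73% were called (3.15% higher, 4.59% lower). Of the 9 genes 7 were tested, with 0 higher and 2 lower. Of 15 further complement genes 1 was higher and 2 lower. Of 17 acute-phase and inhibitor genes 0 were higher and 4 lower, and of 27 inducer, receptor and regulator genes 2 and 1. Among the 9 the difference was -2.14 for CFB (adjusted p = 0.0196) and -2.83 for SERPING1 (adjusted p = 0.00106). Among the other pathway genes it was lower on silk for CD109 (-3.16, adjusted p = 6.41e-05), PTX3 (-3.47, adjusted p = 0.0361) and IL1R1 (-1.10, adjusted p = 0.0266). It was higher on silk for CD55 (1.58, adjusted p = 0.00569), IL6R (1.41, adjusted p = 0.00532) and LIF (1.15, adjusted p = 0.0449). MASP1 (-6.14) and SERPINF1 (-6.12) passed the filter on low values only through the LN/PC co-cultures. Their direction was thus fixed, so they are described without a test, although the list counts include them. The calls for CFB, PTX3, IL1R1 and LIF each ended with at least 1 library left out, with adjusted p up to 0.0688, 0.106, 0.0965 and 0.13. The call for LIF also ended after upper-quartile rescaling (0.0581) and with the replicate block (0.0572). Fibroblast RNA made up 9.81% to 15.2% of the LN/PC co-cultures and at most 0.113% of the silk co-cultures, and its part in these differences was not tested.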

How the results depend on the processing

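Genes whose direction the filter on low values fixes, A2M and HP between membranes and CFI, SERPINA1 and HP against fibroblasts, are left out here. Every membrane call of the other genes held under all alternatives run, 4 in monocultures and 6 in co-cultures, and so did the SERPING1 call on LN/PC. The 3 higher and 1 lower calls against fibroblasts held too. With libraries left out in turn, the genes called numbered 0 to 0 for co-culture on silk, 1 to 2 on LN/PC and 1 to 2 for the difference between responses. On LN/PC the count for co-culture rose from 1 to 2 with a pseudocount of 5, with the 2 compared groups alone (both adding A2M) and after rescaling to equal totals (adding C3), and to 4 on the deposited log2 values (adding A2M, C3 and CFB). It rose to 2 without LN/PC monoculture 2 (C3), LN/PC monoculture 3 (CFB) or LN/PC co-culture 2 (C3). Over all genes, leaving out libraries gave 695 to 3208 calls between membranes in monocultures (1685 with all), 3415 to 4745 in co-cultures (5214), 207 to 559 for co-culture on silk (545), 753 to 2007 on LN/PC (1807), 465 to 1359 for the difference (1116) and 6865 to 8673 for fibroblasts (8460). With the 2 compared groups alone they were 754 between membranes in monocultures, 1174 for co-culture on silk and 1088 on LN/PC.

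Directions turned only where no call was made with all settings as reported. HP on LN/PC in co-culture went to -0.053 after total rescaling, and its difference between responses to -0.016 on the deposited values. The CFI difference went to -0.081 after upper-quartile rescaling. A2M in fibroblasts went to -0.41 with a pseudocount of 5, -0.69 on the deposited values (adjusted p = 0.0103), -0.11 after upper-quartile and -0.31 after total rescaling. The cause was not tested.
With 1 library left out, values that crossed 0 ran as follows, all on the log2 scale: between membranes in co-cultures C3 -0.55 to 0.059, for co-culture on silk C1S -0.36 to 0.15, CFI -0.16 to 0.034, for co-culture on LN/PC HP -0.79 to 0.96, C1S -0.31 to 0.12, CFI -0.29 to 0.084, for the difference between responses HP -0.22 to 1.54, C3 -0.10 to 0.67, C1R -0.21 to 0.33, C1S -0.29 to 0.22, CFI -0.16 to 0.22, for fibroblasts A2M -0.31 to 0.24.

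Rescaling to equal totals moved the median of all genes to 0.14 and 0.17 between membranes (monocultures, co-cultures), -0.13 and -0.20 for co-culture (silk, LN/PC) and -0.40 for fibroblasts, where upper-quartile rescaling gave -0.18. Higher calls were then 63.1% against 50.4% in monocultures, 63.0% against 51.3% in co-cultures, 53.7% against 77.1% for co-culture on silk, 38.1% against 62.3% on LN/PC and 28.6% against 48% for fibroblasts. Upper-quartile rescaling gave 66.2% for co-culture on silk and 30.4% against 40.7% for the difference between responses.

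With the replicate number as a block no call among the tested genes of the 9 was gained or lost. The counts over all genes were 1317, 4811, 443, 1558, 942 and 8365, in the order membranes in monocultures and co-cultures, co-culture on silk and LN/PC, difference and fibroblasts. Among other pathway genes the block ended the monoculture call of CD55 (adjusted p = 0.0525), the difference between responses of LIF (0.0572), NFKB1 for co-culture on LN/PC (0.0503) and IRF1 in fibroblasts (0.0579). The numbers share no stated origin. Same-numbered libraries' deviations correlated at -0.254 to 0.189 (18 pairs), those of other numbers at -0.254 to 0.327. Depth limits A2M and HP on silk, at a few reads per library.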
